A study of Mus musculus with 6 samples.

Results

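Creatine cycling genes are the 7 genes *Ckb*, *Ckmt1*, *Ckmt2*, *Gatm*, *Gamt*, *Slc6a8* and *Alpl*, which were chosen by name and read from every probe whose RefSeq accession maps to one of these symbols. All 7 were on the array, out of 20630 named genes, through 9 probes, and all 9 were among the probes tested. *Ckb* and *Gamt* had 2 probes each, and the other 5 genes had 1 probe each. Where a gene had more than 1 probe, the one with the highest mean signal over the 6 arrays is given first.

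Interscapular brown adipose tissue (iBAT) was taken from male mice of C57BL/6 background whose genotype was control or *ob/ob*, both at 16 weeks of age. *Ob/ob* mice carry a mutated leptin gene, lack functional leptin in every tissue and become obese, so the comparison is of a whole-body state and not of a change made in brown adipocytes. Total RNA of 3 control and 3 *ob/ob* samples was labelled with Cy3 and hybridized to 1-colour Agilent arrays, 1 array per sample. The labels do not say whether RNA was pooled or whether the samples are separate animals, so p-values measure only the spread between these samples, which may be technical. The comparison addressed which transcripts differ in iBAT between control and obese mice.

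Creatine is phosphorylated by creatine kinases at the expense of ATP, and the phosphocreatine formed can give its phosphate back to ADP or lose it by hydrolysis. In brown and beige fat, a cycle in which phosphocreatine is made and hydrolysed over and over has been described as a way to turn over ATP and release heat, beside the uncoupling of mitochondria by UCP1. Creatine itself is either synthesized in a pair of steps, by GATM and then GAMT, or taken up by the transporter encoded by *Slc6a8*.

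The promoters of *Ckmt1* and *Ckmt2* are shown because these genes encode the mitochondrial creatine kinases and their signals ran differently over the arrays. Each sequence is the 250 bases before an annotated start, 5′ to 3′ on the strand of the gene, from RefSeq on GRCm38.p6, and capitals mark matches on either strand to 1 of 4 motifs. *Ckmt1* has another start in the same table, with no match in its 250 bases. The *Ckmt1* window lies at chr2:121357526-121357775 on the plus strand, and the *Ckmt2* window at chr13:91876886-91877135 on the minus strand.
Ckmt1: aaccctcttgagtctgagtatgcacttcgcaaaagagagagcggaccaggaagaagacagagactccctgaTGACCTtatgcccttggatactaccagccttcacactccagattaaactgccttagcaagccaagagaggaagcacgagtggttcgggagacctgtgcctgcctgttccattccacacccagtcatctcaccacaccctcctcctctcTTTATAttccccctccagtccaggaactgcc
Ckmt2: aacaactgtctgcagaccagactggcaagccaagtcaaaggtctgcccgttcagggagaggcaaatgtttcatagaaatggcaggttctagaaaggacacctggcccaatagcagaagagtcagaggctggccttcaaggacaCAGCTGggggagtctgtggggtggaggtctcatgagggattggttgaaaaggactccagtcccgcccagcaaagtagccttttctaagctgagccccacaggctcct

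The *Ckmt1* window held the nuclear receptor half-site AGGTCA, read on the other strand as TGACCT, 179 bases before the start, and the TATA box TATAAA, read on the other strand as TTTATA, 31 bases before it. The *Ckmt2* window held the E-box CAGCTG 107 bases before the start. The fourth motif searched was the cAMP response element half-site TGACG, and no matches overlapped in these windows. Of 32851 promoter windows of the same length, 14.0% held the nuclear receptor half-site, 13.0% the E-box, 12.4% the TATA box and 17.8% the cAMP response element half-site. Over the 8 windows of 6 creatine cycling genes, the nuclear receptor half-site was found in 3 (of *Ckmt1*, *Gatm* and *Alpl*), the E-box in 2 (of *Ckmt2* and *Alpl*), the TATA box in 3 (of *Ckb*, *Ckmt1* and *Alpl*) and the cAMP response element half-site in 1 (of *Alpl*). *Slc6a8* had no entry in this table. A match is a run of letters and not a measured binding site.

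Between 83.5% and 89.9% of spots were well above background on each array, and no spot was saturated. The median log2 signal of the spike-in control spots, before normalization, was 4.01 on ob/ob 3 and between 6.19 and 7.10 on the other arrays. Whether ob/ob 3 differs for a technical reason was not tested. *Lep*, which carries the *ob/ob* mutation, was 5.74, 4.57 and 5.30 in control and 6.68, 5.83 and 9.33 in *ob/ob* samples, and since a point mutation leaves the transcript in place its signal does not check the labels. The arrays did not separate by label. Control 1 and control 2 had a Spearman correlation of 0.964 over all probes tested, and ob/ob 1 and ob/ob 2 of 0.967. For control 3 the coefficient was 0.944 with ob/ob 2 and 0.915 with ob/ob 1, whereas it was only 0.730 with control 2 and 0.642 with control 1. For ob/ob 3 it was 0.858 with control 1, whereas it was only 0.573 with ob/ob 1 and 0.488 with ob/ob 2. Control 3 and ob/ob 3 therefore stand apart from the other arrays that carry their label, and each difference of a creatine cycling gene below is given with and without this pair. These correlations go against both labels. The *Lep* signal did not overlap between the groups as labelled, but for the reason given above it does not check the labels. The labels were kept as given, and whether the 2 samples were exchanged, which would change every group difference, was not tested. Leaving out both left 2 arrays per group, and limma then called 16259 of 35448 probes (45.9%) at an adjusted p under 0.05. With all 6 arrays, limma called none (0%), with 1245 probes at an unadjusted p under 0.05 and a lowest adjusted p of 0.154, and the methods' t-test with Benjamini-Hochberg adjustment also called none, with 1512 unadjusted. Robust estimation with an intensity trend in limma called a single probe and had 1151 probes at an unadjusted p under 0.05.

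No creatine cycling gene passed the adjusted threshold with all 6 arrays, where every one of the 7 had an adjusted p of 1.0 in limma. All 7 had a lower mean in *ob/ob* iBAT, with differences from -0.15 for *Slc6a8* to -1.67 for *Alpl* on the log2 scale. Over all probes, 56.4% had a difference below 0. The median difference of the 7 genes was -1.01, against -0.09 over 19011 genes. *Ckmt1* was the only member whose groups did not overlap and the only one with an unadjusted p under 0.05. Among all probes, 4.19% were lower in *ob/ob* without overlap, and 1.52% were lower with an unadjusted p under 0.05. Because fewer cells of a type and less RNA per cell both lower a signal from whole tissue, these cannot be told apart here.

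**Figure D1:**
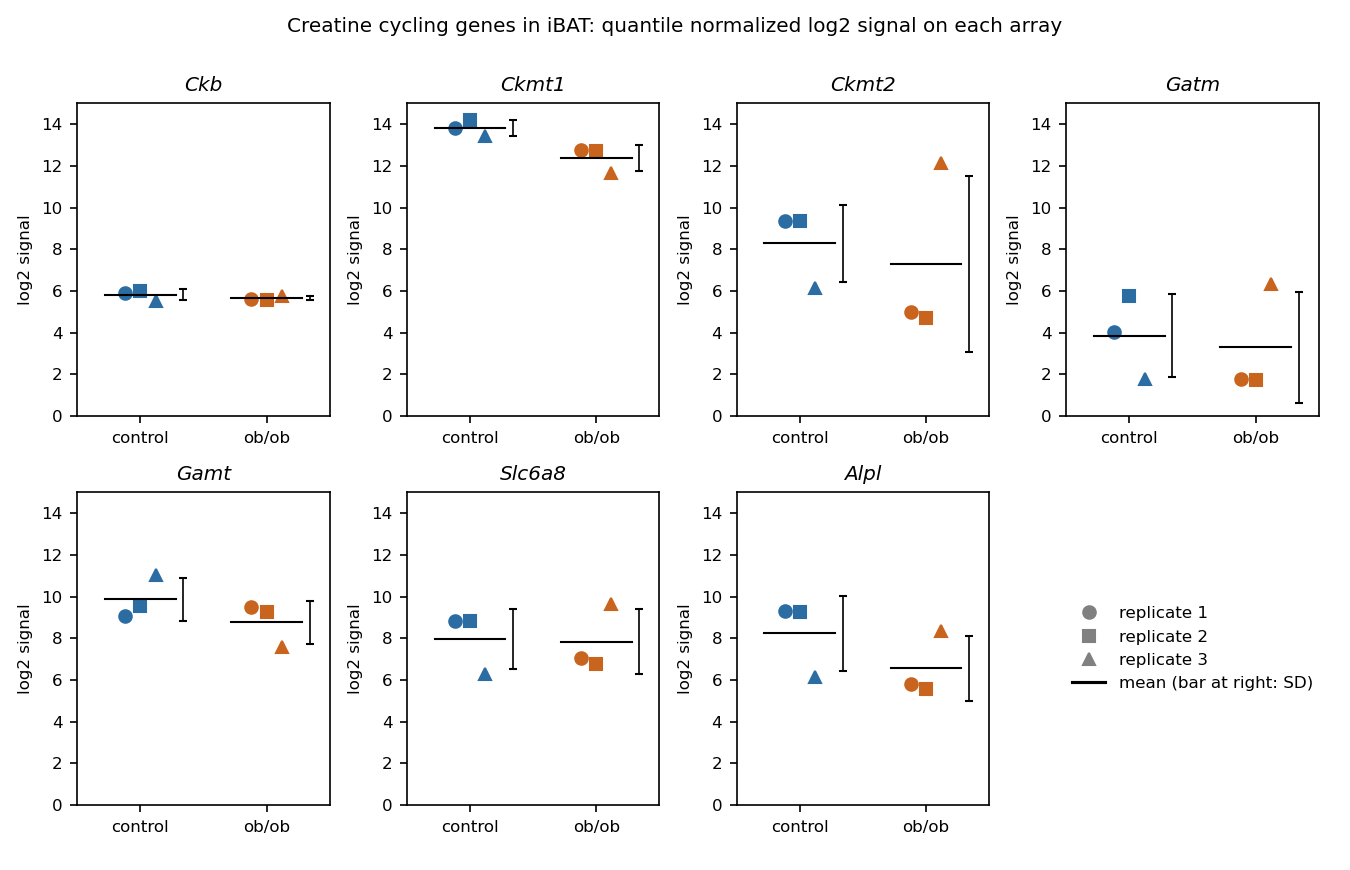
Quantile normalized log2 signal (vertical axis) of the 7 creatine cycling genes on each of the 3 control arrays (blue) and 3 *ob/ob* arrays (orange), with the replicate number as the marker shape, the group mean as a line and the SD as a bar beside it. The *Ckmt1* groups do not overlap, while for *Ckmt2*, *Gatm*, *Slc6a8* and *Alpl* the triangle of control 3 lies with ob/ob 1 and ob/ob 2, and that of ob/ob 3 lies at or near the height of control 1 and control 2 or above.

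*Ckmt1* encodes the ubiquitous mitochondrial creatine kinase, which sits in the intermembrane space and phosphorylates creatine with ATP leaving the matrix. Its log2 signal was 13.83, 14.20 and 13.42 on the control arrays and 12.76, 12.73 and 11.66 on the *ob/ob* arrays. Every *ob/ob* array lay under every control array, and ob/ob 3 was the lowest of the 6. The mean was 13.82 ± 0.39 (SD, n = 3) in control and 12.38 ± 0.63 (SD, n = 3) in *ob/ob* iBAT. The difference was -1.44 ± 0.44 (SE), with a limma unadjusted p of 0.0165 and an adjusted p of 1.0. The exact permutation test, two-sided, gave p = 0.10, the smallest that 3 arrays against 3 can give. By unadjusted p, *Ckmt1* ranked 202 among the 19011 genes.

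The separation of *Ckmt1* was also present before normalization between arrays, with a log2 scanner signal of 14.25, 14.37 and 13.19 in control and 12.52, 12.80 and 11.63 in *ob/ob* samples. It was present again after scaling each array to its 75th percentile, where the difference was -1.27. The share of all probes without overlap is not given here for either of these scales. Scaling to the 75th percentile moved the median difference of all probes from -0.07 to -0.33, so *Ckmt1* lay further below the median of all probes under quantile normalization. With the pair left out it was again -1.27, so the gene was lower with and without the arrays that stand apart. Control 1, control 3 and ob/ob 1 shared 1 scan, and within it *Ckmt1* differed by -0.87. The limma unadjusted p was above 0.05 in 4 alternatives, at 0.0601 with 75th percentile scaling, 0.0560 with a trend and robust estimation, 0.0688 without control 2 and 0.466 with the scan as a block.

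*Ckmt2* encodes the sarcomeric mitochondrial creatine kinase, known from striated muscle. Its log2 signal was 9.34, 9.37 and 6.16 on the control arrays and 4.995, 4.69 and 12.15 on the *ob/ob* arrays. The groups overlapped, since ob/ob 3 was the highest of the 6 arrays while ob/ob 1 and ob/ob 2 were the lowest. The difference over all arrays was -1.01 ± 2.13 (SE), with a limma unadjusted p of 0.651 and an exact permutation p of 0.80. Without ob/ob 3 it was -3.45, and without ob/ob 1 or without ob/ob 2 it was 0.13 and 0.28. With the pair left out it was -4.51, and within the shared scan -2.76.

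The muscle cytosolic kinase gene *Ckm*, which is not a creatine cycling gene as chosen here, had a log2 signal of 7.31, 7.68 and 5.71 in control and 5.56, 5.41 and 8.60 in *ob/ob* samples. Like *Ckmt2*, its higher values were those of control 1, control 2 and ob/ob 3. It differed by -0.38 with a limma unadjusted p of 0.718, and by -2.01 without the pair. Of 12 skeletal muscle markers, 10 were well above background on all 6 arrays. Their summed signal on the log2 scale was between 12.6 and 16.2 in control and between 10.2 and 17.4 in *ob/ob* samples, and it was highest on ob/ob 3. Their median by array was 10.2, 10.7 and 7.79 in control and 6.37, 6.32 and 11.2 in *ob/ob* samples. The part of muscle RNA in the *Ckmt2* and *Ckm* values was not tested.

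*Ckb* encodes the cytosolic brain-type creatine kinase, which has been described as a kinase of the creatine cycle in brown fat. Its brighter probe had a log2 signal of 5.92, 6.01 and 5.52 in control and 5.60, 5.57 and 5.75 in *ob/ob* samples. The groups overlapped, with ob/ob 3 between control 1 and control 3, and the spread over the 6 arrays was the narrowest of the 7 genes. The signal was near the median of the authors' normalized values, 6.00 on each array. Whether so dim a probe narrows the spread was not tested. The difference was -0.18 ± 0.31 (SE), with a limma unadjusted p of 0.594 and an exact permutation p of 0.40. The other *Ckb* probe had 5.63, 5.57 and 5.47 in control and 5.36, 5.40 and 6.503 in *ob/ob* samples, a difference of 0.20 with a limma unadjusted p of 0.649. The probes thus differed in sign, and the mean of both gave 0.01. Scaling to the 75th percentile gave -0.52 for the brighter probe and 0.01 for the other. On the 4 arrays without the pair, the brighter probe gave -0.38, and within the shared scan -0.12.

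Among the genes of creatine synthesis, *Gatm* encodes the amidinotransferase that makes guanidinoacetate from arginine and glycine. Its log2 signal was 4.03, 5.75 and 1.78 in control and 1.78, 1.73 and 6.34 in *ob/ob* samples. It was well above background on 2 of 3 control arrays and 1 of 3 *ob/ob* arrays, so the low values on control 3, ob/ob 1 and ob/ob 2 are not a measured level. The difference was -0.57 ± 1.55 (SE), with a limma unadjusted p of 0.725 and an exact permutation p of 0.90. It was -3.14 without control 3 and ob/ob 3, where neither *ob/ob* array was well above background, so that the *Gatm* mean was at least 1.98-fold lower there by the bound described below for *Elovl3*. That bound sets the control mean of 4.89 against a floor of 3.91, and control 1, at 4.03, lay close to this floor. The difference was -1.12 within the shared scan. Without control 2, ob/ob 1 or ob/ob 2 it was above 0, at 0.38, 0.18 and 0.21.

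*Gamt* encodes the methyltransferase that turns guanidinoacetate into creatine. Its brighter probe had a log2 signal of 9.07, 9.54 and 11.05 in control and 9.49, 9.25 and 7.58 in *ob/ob* samples. Control 3 was the highest array and ob/ob 3 the lowest, while ob/ob 1 and ob/ob 2 lay between control 1 and control 2. The difference was -1.11 ± 0.73 (SE), with a limma unadjusted p of 0.177 and an exact permutation p of 0.40. On the 4 arrays without the pair it was 0.07, and within the shared scan -0.57.

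The other *Gamt* probe gave 8.43, 8.91 and 10.26 in control and 9.06, 8.40 and 7.63 in *ob/ob* samples, a difference of -0.84 with a limma unadjusted p of 0.219. Its control 3 and ob/ob 3 values were again the highest and the lowest. Before normalization between arrays, the brighter probe read 9.96, 9.93 and 10.17 in control and 9.24, 9.08 and 7.39 in *ob/ob* samples. On that scale the groups did not overlap for either *Gamt* probe, whereas they overlapped after quantile normalization and after scaling to the 75th percentile. The 75th percentile of the unnormalized signal was 292, 235 and 94.5 in control and 134, 165 and 140 in *ob/ob* samples. The share of all probes without overlap on the unnormalized scale is not given here, so this does not set *Gamt* apart.

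*Slc6a8* encodes the sodium- and chloride-dependent creatine transporter of the cell surface. Its log2 signal was 8.82, 8.81 and 6.31 in control and 7.08, 6.79 and 9.63 in *ob/ob* samples. The highest array was ob/ob 3 and the lowest was control 3, so the groups overlapped. The difference was -0.15 ± 1.02 (SE), with a limma unadjusted p of 0.891 and an exact permutation p of 1. It was -1.88 without control 3 and ob/ob 3 and -0.48 within the shared scan. It was above 0 when control 1, control 2, ob/ob 1 or ob/ob 2 was left out, at 0.28, 0.27, 0.23 and 0.38.

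*Alpl* encodes tissue-nonspecific alkaline phosphatase, which has been described as the phosphocreatine phosphatase of the cycle in mitochondria of thermogenic fat. Its log2 signal was 9.30, 9.27 and 6.14 in control and 5.79, 5.55 and 8.36 in *ob/ob* samples. Ob/ob 3 lay above control 3, so the groups overlapped, and ob/ob 1 and ob/ob 2 were the lowest of the 6. The difference was -1.67 ± 1.13 (SE), with a limma unadjusted p of 0.189 and an exact permutation p of 0.20. It was -3.61 without control 3 and ob/ob 3, -2.72 without control 3 alone, -2.57 without ob/ob 3 alone and -1.93 within the shared scan.

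Without control 3 and ob/ob 3, 6 of the 7 genes were lower in *ob/ob* iBAT and *Gamt* was higher, while 43.2% of all probes had a difference below 0. In that fit limma called 5 of the 7 at an adjusted p under 0.05, namely *Ckmt1*, *Ckmt2*, *Gatm*, *Slc6a8* and *Alpl*, against the 45.9% of all probes given above. The *Gatm* call rests on *ob/ob* signals that are not a measured level. The arrays left out were picked for how they correlate with the others, so these calls describe the remaining 4 arrays.

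**Figure D2:**
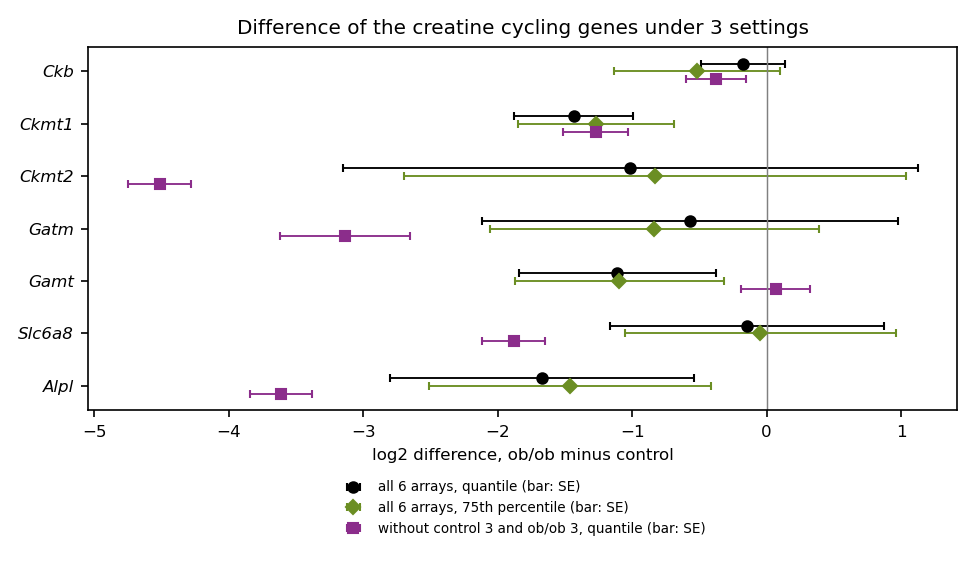
Log2 difference, *ob/ob* minus control (horizontal axis), of each creatine cycling gene with its SE, for all 6 arrays after quantile normalization (black), all 6 arrays scaled to the 75th percentile (green) and 4 arrays without control 3 and ob/ob 3 (purple). *Ckmt1* lies between -1.27 and -1.44 under the 3 settings, while *Ckmt2* moves from -1.01 to -4.51 and *Gamt* from -1.11 to 0.07 when the pair is left out, and the purple *Gatm* point rests on *ob/ob* signals not well above background.

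The labelled tissue was checked against 11 brown adipocyte markers, of which 7 were well above background on all 6 arrays. Their summed signal on the log2 scale was between 12.7 and 16.5 in control and between 12.05 and 13.6 in *ob/ob* samples. *Ucp1*, the uncoupling protein that defines brown adipocytes, was 13.05, 11.72 and 9.48 in control and 8.93, 9.12 and 10.03 in *ob/ob* samples. The *Ucp1* difference was -2.06 with a limma unadjusted p of 0.0642, and it was -3.36 without the pair. Of the 11 markers, 9 were lower in *ob/ob* samples, with a median difference of -2.08 and none called after adjustment, and the median was -3.36 without the pair.

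*Elovl3*, a fatty acid elongase of brown fat, *Zic1*, a transcription factor of the interscapular depot, and *Ppargc1a*, a coactivator of mitochondrial genes, had unadjusted p under 0.05 in limma. *Elovl3* was not well above background on any *ob/ob* array and was at least 15.8-fold lower there (limma adjusted p of 1.0), where the *ob/ob* mean was set, array by array, to the higher of its own signal and the lowest signal of any probe well above background. *Zic1* differed by -2.08 and *Ppargc1a* by -2.91, and by -2.11 and -4.35 without the pair. The brightest marker by mean over the 6 arrays, *Cox8b*, a cytochrome c oxidase subunit gene, differed by -2.32, and by -3.91 without the pair.

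The median of the brown adipocyte markers was 9.66, 9.99 and 7.59 in control and 7.05, 6.97 and 7.07 in *ob/ob* samples, a difference of -2.05 with an exact permutation p of 0.10. Each creatine cycling gene was also read relative to this median on the same array. Because the median itself was lower in *ob/ob* samples, 99.3% of all probes had a relative difference above 0, so that the sign of the members' relative differences says nothing about them. For *Ckb* the relative log2 value was -3.74, -3.98 and -2.07 in control and -1.44, -1.40 and -1.33 in *ob/ob* samples, a difference of 1.88. For *Slc6a8* it was -0.84, -1.18 and -1.29 in control and 0.03, -0.19 and 2.56 in *ob/ob* samples, a difference of 1.91. Neither gene overlapped between groups on this scale (exact permutation p of 0.10 for each), where 39.7% of all probes were higher in *ob/ob* without overlap. The other 5 genes overlapped, with differences from 0.38 for *Alpl* to 1.48 for *Gatm* and exact permutation p from 0.40 to 1. After scaling to the 75th percentile *Slc6a8* did not overlap (2.03) and *Ckb* did (1.56), with 27.2% of all probes higher without overlap. On the 4 arrays without the pair the relative differences were 2.44 for *Ckb*, 1.55 for *Ckmt1*, 2.88 for *Gamt* and 0.93 for *Slc6a8*, but below 0 for *Ckmt2* (-1.70), *Gatm* (-0.32) and *Alpl* (-0.80).

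**Figure D3:**
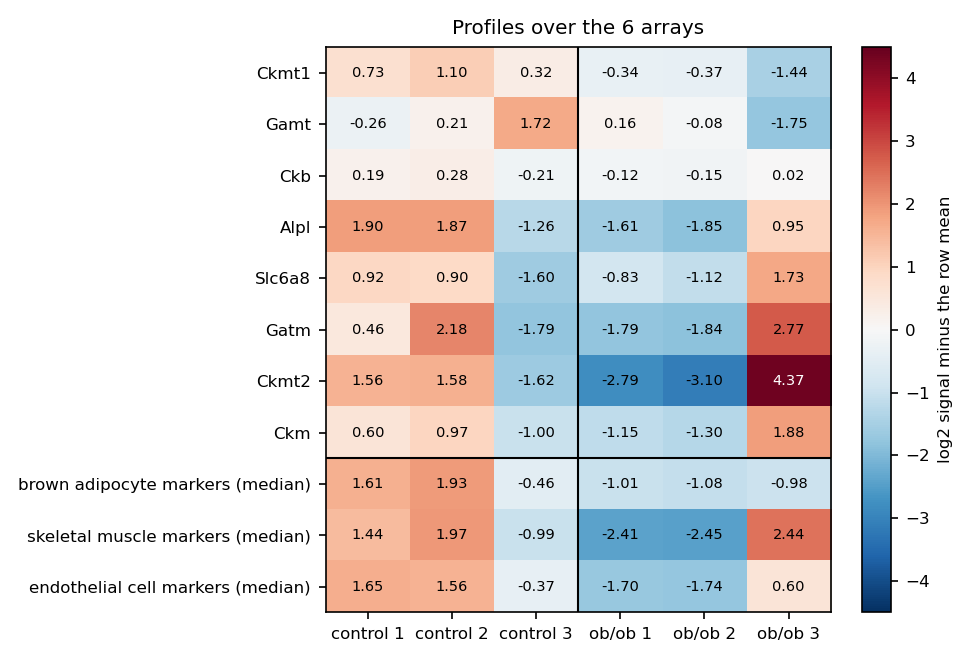
Log2 signal minus the mean of its row (colour and printed value) on each of the 6 arrays, for the 7 creatine cycling genes, *Ckm*, and the medians of the brown adipocyte, skeletal muscle and endothelial marker lists. *Ckmt2* reaches 4.37 on ob/ob 3, where the skeletal muscle median is 2.44 and the brown adipocyte median is -0.98.

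The median of 6 endothelial markers was 9.16, 9.07 and 7.15 in control and 5.81, 5.77 and 8.11 in *ob/ob* samples, which is high on control 1, control 2 and ob/ob 3, as were *Alpl*, *Slc6a8* and *Gatm*. The summed endothelial signal on the log2 scale was between 12.7 and 13.3 in control and between 11.8 and 12.6 in *ob/ob* samples. Unlike the median, this sum was lowest on ob/ob 3. Of the 6 markers, 5 were well above background on all arrays. The brightest, *Pecam1*, a cell adhesion protein, differed by 0.05, but by 1.42 without the pair. Its signal was also lowest on ob/ob 3, at 9.80. It was highest on control 3, ob/ob 1 and ob/ob 2, at 12.49, 12.44 and 12.58. The median difference of the list went from -1.08 to -1.91 without the pair. The part of endothelial or muscle RNA in the *Alpl*, *Slc6a8* and *Gatm* values was not tested.

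The other marker lists were read in the same way. Of 8 white adipocyte markers 5 were lower, with a median of -0.15 (0.18 without the pair), and *Retn*, the brightest and the gene of the adipokine resistin, differed by -1.98 (limma unadjusted p of 0.0385; -2.85 without the pair). Of 6 macrophage markers 2 were lower, with a median of 0.38 (0.29 without the pair), and the brightest, *Itgam*, differed by -1.43 (-1.56). Of 7 neutrophil markers 1 was lower, with a median of 0.55 (0.11 without the pair), and the brightest, *Csf3r*, differed by 0.54 (0.48). Of 6 Schwann cell markers 3 were lower, with a median of -0.02 (-0.10 without the pair), and the brightest, *S100b*, differed by 0.76 (-0.46). The skeletal muscle list had 11 of 12 lower with a median of -1.26 (-3.02 without the pair), the brightest being *Myh4*, a fast myosin gene, at -4.13 (-7.74), while *Mylpf*, a fast myosin light chain gene, was higher by 1.19 (limma unadjusted p of 0.0341; 1.64 without the pair). With all 6 arrays, no marker of any list was called after adjustment.

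Around the cycle, 32 other genes of creatine metabolism were tested in 5 lists, and a further one, *Alpi*, did not pass the detection filter. Of the 32, 14 had a lower and 18 a higher mean in *ob/ob* samples, with a median difference of 0.13 and none called by limma after adjustment. On the 4 arrays without the pair the tally turned to 18 lower and 14 higher, with a median of -0.26. *Slc16a12*, which encodes a second creatine transporter of the monocarboxylate transporter family, was the only one with an unadjusted p under 0.05. Its log2 signal was 10.83, 12.04 and 9.07 in control and 5.34, 3.70 and 8.46 in *ob/ob* samples. Every *ob/ob* array lay under every control array, and *Slc16a12* was well above background on all 3 control arrays and 2 of the 3 *ob/ob* arrays. The difference was -4.81 ± 1.33 (SE), with a limma unadjusted p of 0.0103, an adjusted p of 1.0 and an exact permutation p of 0.10. On the 4 arrays without the pair it was -6.91, where only 1 of the 2 *ob/ob* arrays was well above background. Over all probes, 4.19% were lower in *ob/ob* without overlap and 1.52% were lower with a limma unadjusted p under 0.05. The other creatine transporter gene measured here, *Slc6a8*, overlapped between groups. It differed by only -0.15 ± 1.02 (SE) and changed sign in 4 alternatives.

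Of 10 genes of arginine and glycine supply, 4 were lower and 6 higher, with a median of 0.14, whereas scaling to the 75th percentile gave 6 lower, 4 higher and a median of -0.12. *Slc6a9*, a glycine transporter gene, was the only one without overlap, at 5.88, 5.95 and 6.10 in control and 6.68, 7.06 and 6.46 in *ob/ob* samples. It was higher by 0.76 ± 0.32 (SE), with a limma unadjusted p of 0.0550 and an exact permutation p of 0.10, and by 0.96 without the pair. The list named methyl supply for creatine synthesis held 7 genes, not all of which supply methyl groups. Of these, 3 were lower and 4 higher, with a median of 0.91 over all arrays and of -0.26 without control 3 and ob/ob 3. The widest differences of that list over all arrays were 1.21 for *Ahcyl2* and 1.14 for *Adk*, the adenosine kinase gene, which were 0.34 and -0.26 without the pair.

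Of 9 genes of mitochondrial adenine nucleotide exchange, which carry ATP to the mitochondrial kinases and ADP back, 3 were lower and 6 higher, with a median of 0.20. Without control 3 and ob/ob 3, 8 of the 9 were lower, with a median of -1.70. *Slc25a5*, which encodes an ADP/ATP carrier, differed by 1.44, and by -0.63 without the pair. Of 4 other phosphatases 2 were lower and 2 higher, with a median of 0.03 and differences from -0.26 for *Akp3*, an intestinal alkaline phosphatase gene, to 0.23 for *Phospho2* (0.12 and -0.38 without the pair), whereas scaling to the 75th percentile put all 4 lower (median -0.39).

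**Figure D4:**
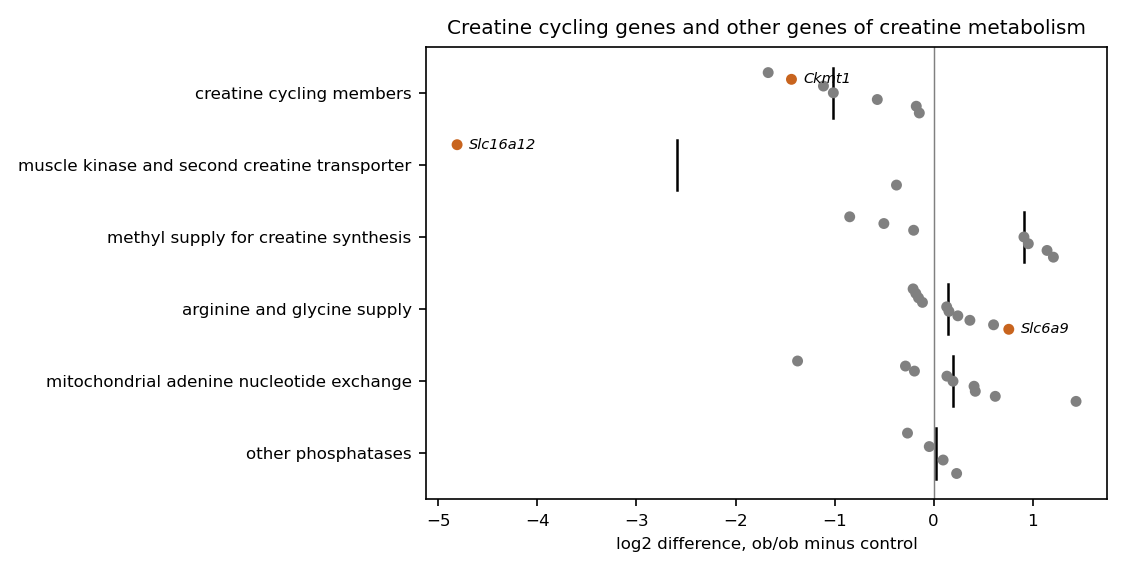
Log2 difference, *ob/ob* minus control (horizontal axis), of each tested gene in 6 lists of creatine metabolism, the creatine cycling genes at the top, with the list median as a vertical line. Orange points mark genes whose groups do not overlap, which were *Ckmt1* and *Slc16a12* (lower in *ob/ob*) and *Slc6a9* (higher).

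The profiles of the 7 genes over the 6 arrays were compared by the root mean square difference of their centred log2 values, as a description over 6 arrays. Of the members with *Ckm*, the closest pair was *Slc6a8* and *Ckm* at 0.324, and the next were *Ckb* and *Ckmt1* at 0.760, *Gatm* and *Ckm* at 0.775, and *Slc6a8* and *Alpl* at 0.792. The measure is not scaled to the range of a gene, and centred *Ckb* values ran only from -0.21 to 0.28. A small distance from *Ckb* therefore need not mean a shared pattern. The members were also compared with 12610 genes that were well above background on all 6 arrays and had a range of at least 1 log2 unit. Among these, the nearest to *Ckmt1* were *Wnt1* at 0.131 and *Mpped1* at 0.148, and the nearest to *Ckmt2* were *Serinc3* at 0.320 and *Smoc2* at 0.359. For *Ckb* they were *Zkscan5* at 0.196 and 2310065F04Rik at 0.216. The range of *Ckb* was only 0.49, so genes as flat as *Ckb* were not among those compared. For *Gatm* the nearest were *P4ha2* at 0.381 and *Myom3* at 0.382. For *Gamt* they were *Lgi4* at 0.0906 and *Plekha1* at 0.123. For *Slc6a8* they were *Zzz3* at 0.0799 and *Poldip3* at 0.0911, and for *Alpl* they were *Mbd6* at 0.0915 and *Rab6b* at 0.117.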

How the data were processed

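Total RNA of 6 iBAT samples was profiled on 1-colour Agilent arrays. Per the labels, Agilent Feature Extraction 11.0.1.1 gave the deposited spot intensity, and the authors also deposited a quantile normalized log2 table, used as an alternative. Gene symbols came from RefSeq accessions of the probes, of which 27234 of 28684 were matched to a table of GRCm38.p6. The array design's coordinates are not given.

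Outlier spots were dropped, the log2 values of each probe's remaining spots were averaged, and the result was quantile normalized in limma 3.58.1 (R 4.3.3), and kept where at least 50% of spots were well above background on at least 3 of 6 arrays. This left 35448 probes. limma (lmFit, eBayes) compared *ob/ob* with control samples, p-values were adjusted by Benjamini-Hochberg over the probes kept at a threshold of 0.05, and exact permutation tests were two-sided. The number of arrays limits the precision. The script was tested on simulated data. Figures used Python 3.11.15.

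The genes, gene lists and tests were chosen with earlier results of these data known. Named were all 7 genes, *Ckm* and *Ucp1*, genes of the other lists with an unadjusted p under 0.05 or no overlap and otherwise up to 2 with the widest difference, the brightest marker of each list and those with an unadjusted p under 0.05, and the 2 nearest profiles per gene, and *Lep* was added as the mutated gene. Some genes that this rule names are not reported here. Alternatives covered scaling, background correction, the authors' log2 values, detection filters and flags, the methods' t-test, limma options, blocks, each array left out, the pair left out, and the mean of probes. Unnormalized values and the alternatives of the values relative to brown adipocyte markers were added after seeing the data.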

Additional observations from a re-analysis of the deposited data

How the results depend on the processing

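Of 127 alternative values of the 7 genes' differences, 105 kept their sign and side of the threshold, 11 changed sign and 11 passed the threshold. Outside array weights and the pair left out, at most 1 probe was called in any alternative, so the side of the threshold could hardly change there. Several alternatives change only the filter or the variance and leave the difference as it was, so the tally is no measure of stability. Without control 3 and ob/ob 3 the differences were -1.27 for *Ckmt1*, -4.51 for *Ckmt2*, -3.14 for *Gatm*, 0.067 for *Gamt*, -1.88 for *Slc6a8* and -3.61 for *Alpl* (*Gatm* being only bounded there), with 16259 probes called. Array quality weights, whose estimate did not converge, gave -0.41 for *Ckb*, -1.44 for *Ckmt1*, -4.37 for *Ckmt2*, -3.97 for *Gatm*, -1.73 for *Slc6a8* and -3.48 for *Alpl*, with 33168 probes called. limma with a trend and robust estimation called 1 probe. Normexp background correction gave -0.20 for *Ckmt2*, -0.06 for *Gatm* and -0.04 for *Slc6a8*. The mean of probes gave 0.011 for *Ckb*. Leaving out each array in turn gave -3.45 to 0.28 for *Ckmt2*, -2.10 to 0.38 for *Gatm*, -1.04 to 0.38 for *Slc6a8*, -1.63 to -1.07 for *Ckmt1*, -1.52 to -0.51 for *Gamt*, -0.32 to -0.08 for *Ckb* and -2.72 to -1.14 for *Alpl*, and 4 to 7 genes lower, with 4 without ob/ob 1 and 4 without ob/ob 2. *Gatm* had no value where detection on all 6 arrays was required. The cause of these changes was not tested. Same-numbered samples had deviations from their group means that correlated at -0.78, -0.66 and -0.85, and of 6 samples 0 correlated best with its own number. Control 3 and ob/ob 3 stand apart in their groups and shape these deviations, so this check cannot tell whether the numbers pair the samples. With the replicate number as a block (replicate block), *Ckmt1* differed by -1.44 with a limma unadjusted p of 0.0391 (0.0108 to 0.466 over the alternatives other than weights and the pair left out), and 0 probes were called, as without it.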
